A study of Mus musculus with 8 samples.

Results

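Cytosolic ribosomal protein genes encode the proteins of the ribosome outside mitochondria, and their transcripts were followed in whole mouse embryos with altered Meis1 or Prep1. Members were taken by symbol, as Rpl or Rps followed by a number, together with Rpsa, Rplp0, Rplp1 and Rplp2, leaving out pseudogene symbols and the Rps6k kinases. The rule found 81 members among the 18904 genes of the Meis1 table, 48 of the large and 33 of the small subunit. In the Prep1 table it found 80 of 17348 genes, since Rpl39l is listed only in the former. All embryos were C57BL/6 at embryonic day 11.5, and mRNA was read as single-end reads of 68 bases. The Meis1 comparison has 3 libraries labelled as wild type (WT) and 3 labelled as Meis1 knockout (KO), and the Prep1 comparison has 1 WT library and 1 library of a Prep1 hypomorph, an animal that makes little Prep1. The controls were littermates of the mutants. Neither the allele of a mutant nor whether a library is 1 embryo or a pool is stated in the labels, so p-values measure only the spread between these libraries.

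The ribosome is built in the nucleolus from ribosomal RNA and roughly equal numbers of each ribosomal protein. The small subunit decodes the messenger RNA and the large subunit joins amino acids. Ribosomal protein messenger RNAs usually start with a run of pyrimidines, the terminal oligopyrimidine (TOP) tract, through which mTOR sets their translation. Mutations in single members give tissue-specific defects in mice and people, in red cells, skeleton and pigment. Meis1 and Prep1 (gene Pknox1) are homeodomain factors of the TALE class that bind DNA with Pbx partners.

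The Meis1 file holds group means from which whole counts per library were worked back, giving 4248755 to 6230893 counts per library over the genes settled in both groups. The libraries are named WT a to c and KO a to c and cannot be tied to the submitters' sample codes, of which 1 in each group begins with M and the other 4 are plain numbers. The letters follow rising total counts within each group, so a letter shared by a WT and a KO library stands for no litter or batch. Library KO a stood apart from the other 5, and WT b with KO b shared a second pattern, both described with the results. Meis1 itself was at 92.9, 87.7 and 112 CPM, the counts scaled to a common library total, in WT and at 85.9, 67.8 and 70.4 CPM in KO, groups that do not overlap, with an adjusted p of 0.9999 by edgeR's quasi-likelihood test. Pknox1 had 129 counts in the Prep1 WT library and 14 in the hypomorph, which is -3.58 on the log2 scale (95% counting interval -4.70 to -2.99). Of 3 marker genes each for neurons, skeletal and heart muscle, cartilage, liver, endothelium, macrophages, red cells, megakaryocytes and epidermis, 2 or 3 passed the filter on low counts in the Meis1 libraries. Of 3 listed genes each for trophoblast and for lymphocytes, 0 are in the Meis1 table, so their levels cannot be given.

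Ribosomal protein transcripts were unequal in level. Levels were put on the scale of CPM per kilobase of transcript, where the mean over the 6 Meis1 libraries was 0.55 for Rpl39l. The length was that of 1 coding transcript per gene in GENCODE M21, the longest of the best-ranked ones. A long transcript can understate a gene's level on this scale, so genes compare only roughly. Rps15a, at 268.6 CPM, has a transcript of 5179 bases and came to 51.9 CPM per kilobase. Among the highest were Rps15 at 1201, Rpl13a at 1116, Rplp0, the base of the stalk that recruits elongation factors, at 1083, and Rpl4, which lines the exit tunnel, at 1059 CPM per kilobase. Rps27 and Rps28, the lowest members of the small subunit, stood at 1.86 and 1.70 CPM per kilobase. The 10 members with the highest mean CPM held 59.5% of all member counts. Members lay on 19 chromosomes, with 14 of the 81 on chromosome 7.

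RefSeq promoters on build GRCm38.p6 were matched to 59 of the 81 members, 36 large and 23 small. A run of at least 5 pyrimidines touching the 5 bases on either side of the annotated start was held by 35 of the 59 (59.3%), against 35.1% of all 27025 genes in the same table. The sequences below are shown because they let the starts of abundant members be compared with those of members low in WT b and KO b. They are the 2 members of each subunit with the highest CPM and a single promoter entry, and Rps18 and Rps2, which are low in those libraries alone. Each runs 5′ to 3′ from 50 bases before the start to 20 bases from it, with the pyrimidine run, where there is one, in capitals.
Rpl4 (chr9:64173337-64173406, plus strand): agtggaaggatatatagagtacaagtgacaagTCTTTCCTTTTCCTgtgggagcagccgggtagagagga
Rplp0 (chr5:115559417-115559486, plus strand): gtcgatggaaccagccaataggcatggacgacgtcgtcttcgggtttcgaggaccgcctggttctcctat
Rps3 (chr7:99483690-99483759, minus strand): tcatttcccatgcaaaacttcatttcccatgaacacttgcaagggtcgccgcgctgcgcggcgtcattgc
Rps9 (chr7:3703991-3704060, plus strand): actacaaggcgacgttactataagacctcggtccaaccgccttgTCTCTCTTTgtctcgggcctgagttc
Rps18 (chr17:33955646-33955715, minus strand): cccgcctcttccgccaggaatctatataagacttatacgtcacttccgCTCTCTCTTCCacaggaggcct
Rps2 (chr17:24720013-24720082, plus strand): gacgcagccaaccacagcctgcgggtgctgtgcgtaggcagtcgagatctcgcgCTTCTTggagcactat

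The run spans 14 bases before the annotated start of Rpl4, and 11 bases across that of Rps18, where it begins 2 bases before the start. Rplp0 and Rps3, which are among the highest members, hold no such run at the RefSeq start. Short motifs were searched on both strands of the 300 bases around each start. TGACAG, the hexamer that Meis and Prep proteins bind, was in 8 of 59 members (13.6%) and in 21.6% of all genes, and TGATTGA, a Pbx-containing form, was in 1 member (1.69%) and in 3.09% of all genes. CCGGAAG, the core bound by Ets factors, was in 24 members (40.7%) and in 9.93% of all genes. TCTCGCG was in 13 members (22.0%) and in 2.92% of all genes, AAGATGG, bound by Yy1, in 10 (16.9%) and in 7.28%, and TATAAA in 7 (11.9%) and in 15.7%. These are matches of letters in a window and show no binding.

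No ribosomal protein gene passed the test between Meis1 KO and WT embryos. Of 78 members with enough counts to test, 0 passed an adjusted p of 0.05 in edgeR, as did 0% of the 14438 genes tested, with 2 members at an unadjusted p under 0.05 against a background of 1.57%. One was higher in KO, as were 1.07% of all genes, and 1 lower, as were 0.499%. DESeq2 called 0 members and 0.00693% of all genes (1 gene), limma-voom called 0 members and 0% of all genes, and the authors' deposited table lists 0 members at an adjusted p under 0.1, against 0.302% of its genes. Of the 78, 60 were higher on average in KO and 18 lower (background 49.9% higher), with a median log2 difference of 0.10 in the large and 0.11 in the small subunit, where all genes had -0.00. The 2 subunits spread from -0.44 to 0.68 and from -0.52 to 0.45. In whole embryos, fewer cells of a type and less RNA per cell cannot be told apart. Without KO a the medians turned to -0.10 and -0.17, and 13 members were higher and 65 lower.

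Library KO a carried the higher mean. The median member of the large subunit lay at -0.08, 0.02 and 0.10 (log2 against the WT mean) in the WT libraries a to c. It lay at 0.49 (KO a), -0.21 (KO b) and 0.01 (KO c) in the others. For the small subunit the same values were -0.10, 0.01 and 0.12 in WT and 0.53, -0.20 and -0.05 in KO. KO a was thus above every WT library and KO b below every WT library in both subunits, while KO c lay among the WT libraries. KO a was above the highest WT library in 63 of 78 members (80.8%), against 30.7% of all genes, and it held the highest value of the 6 libraries in 60 of them (76.9%), against 26.4% of all genes. KO b was below the lowest WT library in 41 members, against 21.8% of all genes.

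**Figure D1:**
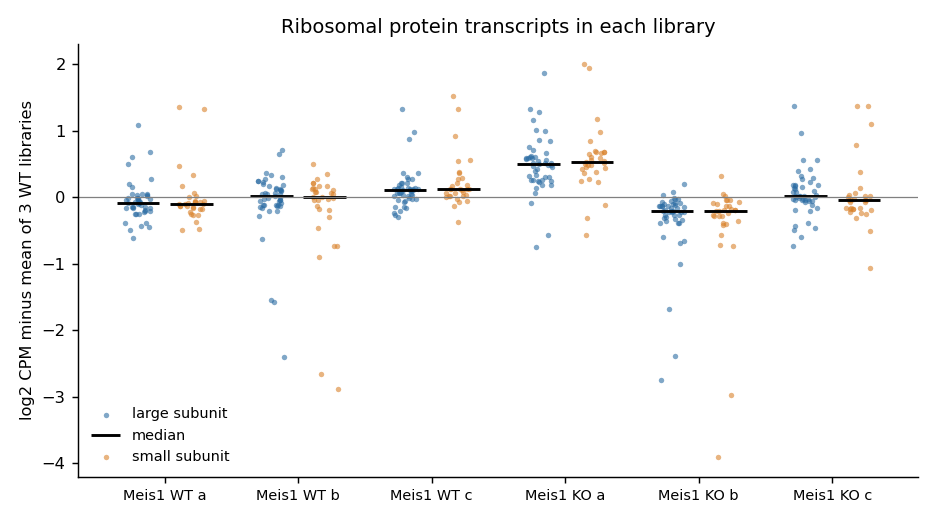
Each point is 1 of the 78 tested ribosomal protein genes in 1 Meis1 library, as log2 CPM minus the mean of the 3 WT libraries, and black bars are medians. Both subunits lie near 0.5 in KO a and near -0.2 in KO b, and the few points under -1.5 are in WT b and KO b.

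The same order held for the summed counts. Members took 1.64%, 1.90% and 1.92% of the counts in the 3 WT libraries. They took 2.57% (KO a), 1.54% (KO b) and 1.73% (KO c) in the others. Counting error is small beside these gaps, with an exact 95% interval of 2.56% to 2.59% in KO a. The means were 1.82% ± 0.16 in WT and 1.95% ± 0.55 in KO (SD, n = 3 each), a difference of 0.127 percentage points with p = 0.90 in a two-sided exact permutation test, which cannot go below 0.10 here. Without KO a the KO mean was 1.64%, and the difference was -0.185.

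No difference between the large and the small subunit exceeded the spread between libraries. The large-minus-small difference of the medians was 0.02, 0.02 and -0.02 in WT. In the KO libraries it was -0.04, -0.01 and 0.06, and the groups overlap. Between KO and WT the medians differed by -0.01, less than the SD of 0.04 between libraries, and the sign changed under several settings. The ratio of large-subunit to small-subunit counts was 1.10, 0.998 and 1.06 in WT and 1.05, 1.08 and 1.12 in KO, with p = 0.50 in a two-sided exact permutation test.

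The members with the smallest p-values differed in how far KO a set their differences. Rpl12, at the base of the stalk (chromosome 2, 32817079 to 32820016 on build mm9), was at 44.8, 42.2 and 50.6 CPM in WT and at 111.6, 42.8 and 67.3 CPM in KO. KO b lay inside the WT range, and the log2 difference was 0.68 ± 0.29 (SE; unadjusted p = 0.039, adjusted p = 0.9999 by edgeR). It was 0.26 without KO a and 0.28 with the pseudogene copies of Rpl12 summed into it. In the authors' deposited table its adjusted p is 0.418 and those of the other members are 1. Rps4y2, a relative of Rps4x on chromosome 6 (148303178 to 148304120 on mm9) that GENCODE M21 names Rps4l and annotates as a transcribed processed pseudogene, was at 70.3, 77.4 and 72.2 CPM in WT and at 49.2, 63.5 and 59.0 CPM in KO. Its groups do not overlap, and the log2 difference was -0.36 ± 0.14 (unadjusted p = 0.033, adjusted p = 0.9999 by edgeR). Without KO a the difference was -0.26. Rpl21, a large-subunit protein, was the other member without overlap, at 19.2, 27.3 and 19.4 CPM in WT and 14.4, 17.9 and 15.9 CPM in KO. Its log2 difference was -0.44 ± 0.21, and -0.37 without KO a. Together 2 of 78 members (2.56%) had groups that do not overlap, under the background of 5.67%. Both were lower in KO, as were 2.67% of all genes, and 0 were higher, where 3.01% of all genes were.

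Among the other members with the smallest p in each direction, the log2 differences of those higher in KO were 0.34 for Rpl10a, 0.31 for Rplp2, an acidic stalk protein, 0.29 for Rpl9, 0.36 for Rps16, 0.35 for Rps10, 0.44 for Rps12 and 0.20 for Rps19. Those lower in KO were -0.35 for Rpl27, -0.29 for Rpl11, -0.07 for Rpl7l1, -0.52 for Rps29, -0.28 for Rps23 and -0.23 for Rps27a, which is made as a fusion with ubiquitin. All had an adjusted p of 0.9999 by edgeR. Single libraries set some of these values, with Rps10 at 0.07 without KO a, Rps12 at 0.13 without WT b and Rpl11 at -0.03 without KO b. Of 41 single members followed, 40 changed sign or moved by over 1.5 times when 1 of the libraries was left out. Rpl21, Rpl27, Rpl7l1, Rps27a, Rps29 and Rps4y2 were the 6 tested members at or under the WT mean in KO a, with log2 values between -0.75 and -0.09 there.

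Members with known roles in development or disease differed in which libraries were high or low. Rps19, the member most often mutated in Diamond-Blackfan anaemia, was at 125.5, 150.8 and 139.1 CPM in WT and at 204, 131.4 and 140.3 CPM in KO, high in KO a alone. Rpl5 and Rpl11, which bind Mdm2 together with 5S ribosomal RNA, gave log2 differences of 0.05 ± 0.21 and -0.29 ± 0.30. Rpl5 was at 31.0, 38.5 and 43.0 CPM in WT and at 42.2, 28.3 and 46.2 CPM in KO, highest in KO c. Rpl11 was at 22.7, 22.7 and 23.2 CPM in WT and at 28.8, 11.2 and 16.5 CPM in KO, so that the KO values lie on both sides of a narrow WT range. Rpl38, which is mutated in tail-short mice, was at 22.3, 25.5 and 25.3 CPM in WT and at 34.4, 15.8 and 15.9 CPM in KO, again on both sides. Rpl24, mutated in belly-spot-and-tail mice, was at 29.4, 29.9 and 33.4 CPM in WT and at 36.8, 30.4 and 31.2 CPM in KO. Rps20, which like Rps19 gives dark skin when mutated in mice, was at 612.1, 638 and 670.5 CPM in WT and at 1035, 559.7 and 571.5 CPM in KO. Rps7, mutated in mice with skeletal and pigment defects, had a log2 difference of 0.04 ± 0.29, and Rps14, lost in the human 5q- syndrome, 0.08 ± 0.28. Rpsa, mutated in human asplenia, had -0.01 ± 0.18, Rplp0 0.10 ± 0.18, Rpl4 0.15 ± 0.18 and Rpl13a 0.12 ± 0.26. Rps6, phosphorylated by S6 kinases, was at 3.08, 1.95 and 7.04 CPM in WT and at 5.36, 3.59 and 8.05 CPM in KO, also highest in KO c, with a log2 difference of 0.45 ± 0.48. None of these exceeded the spread between libraries.

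Lists of the translation machinery and of ribosome assembly differed in their median in KO a, a difference that was not tested. The median of 21 translation factors and other genes known for a TOP start, which was not searched in them here, was at 0.46 in KO a and between -0.02 and 0.01 in the other 5 libraries. Among them Eif4b, a helicase cofactor, was at 545.6, 484.8 and 500.4 CPM in WT and at 927.4, 504.8 and 506.5 CPM in KO. The 50 ribosome assembly factors were at 0.05 in KO a, the 13 genes of the RNA polymerase I machinery at -0.00, the 77 mitochondrial ribosomal protein genes at -0.06, and the 17 genes of Myc and mTOR control at 0.02. The mitochondrial list was at -0.04, 0.00 and 0.04 in WT and at -0.06, -0.13 and -0.05 in KO, without overlap. Of its 77 genes 21 were higher on average in KO, where 49.9% of all genes were, and this difference was not tested. The 12 p53 targets of ribosomal stress were at 0.19 in KO a and at 0.13 in WT a. By edgeR 0 genes of any of these lists passed an adjusted p of 0.05. At an unadjusted p under 0.05, 1 mitochondrial ribosomal protein gene was lower (Mrpl12, log2 difference -0.34 ± 0.15), as were 0.499% of all genes, and 0 genes of the other lists differed.

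**Figure D2:**
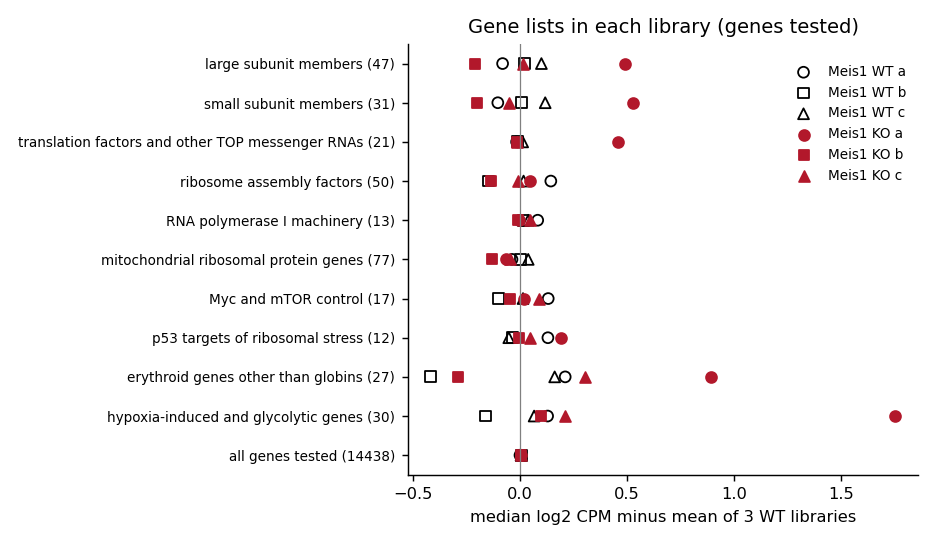
For each gene list (number of genes tested in brackets), points give the median log2 CPM minus the mean of the 3 WT libraries in each Meis1 library. Both ribosomal subunits, the other TOP genes, the erythroid genes and the hypoxia-induced genes are highest in KO a, and assembly factors and mitochondrial ribosomal protein genes are not. The p53 targets are also highest in KO a, at 0.19 against 0.13 in WT a.

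Other groups were also high in KO a. The 30 hypoxia-induced and glycolytic genes had a median of 1.75 in KO a and between -0.16 and 0.21 in the other 5 libraries. All 30 were highest in KO a, where 26.4% of all genes were. The list was chosen with earlier results of these data known. In KO against WT, 0 of the 30 passed an adjusted p of 0.05 in edgeR. At an unadjusted p under 0.05, 15 were higher, where 1.07% of all genes were, among them Vegfa (log2 difference 1.43 ± 0.50). The median log2 difference of the 30 genes was 0.88, and 0.13 without KO a. Their summed level was 13243 CPM in KO a and between 3472 and 4671 CPM in WT. The 27 erythroid genes other than globins were at 0.21, -0.42 and 0.16 in WT and at 0.89 (KO a), -0.29 (KO b) and 0.30 (KO c). The part of hypoxia and of red cells in the ribosomal protein values was not tested.

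The authors' variance ratios, a gene's variance among the 3 libraries of a group over the variance fitted for its level, carry the same spread. Among the 81 members, 22 in the authors' deposited table (27.2%, exact 95% interval 17.9% to 38.2%) exceeded 1 in WT and 55 (67.9%, 56.6% to 77.8%) did so in KO. All genes gave 16.4% and 17.3%. The median member was at 0.41 in WT and 1.45 in KO, by the authors' deposited table, where all genes had 0.34 in both. The small subunit had a median of 0.50 in WT and 1.90 in KO, and the large subunit 0.35 and 1.34, in the authors' deposited table. Genes of a group are not independent, so these intervals cover counting only.

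**Figure D3:**
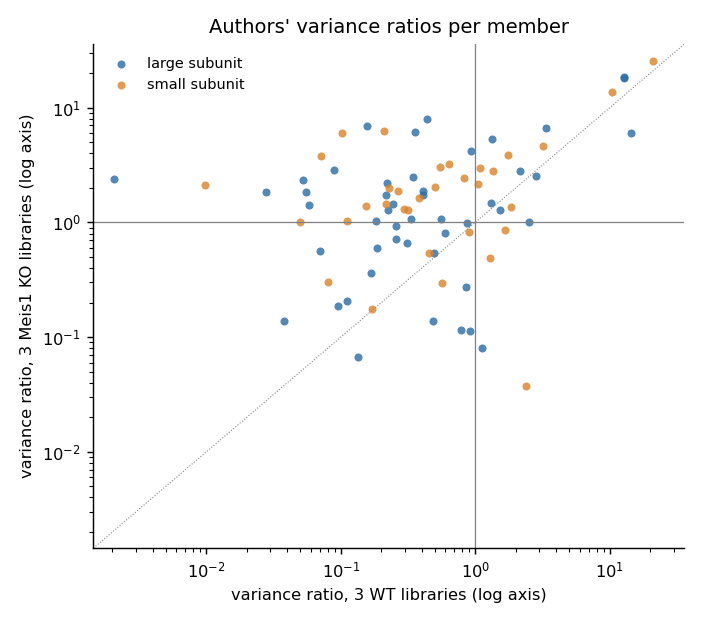
Each point is 1 of the 81 ribosomal protein genes, with the authors' variance ratio among WT libraries on the x axis and among Meis1 KO libraries on the y axis, both log scales. Most members lie above the dotted line of equal ratios, with medians of 0.41 in WT and 1.45 in KO, and those above 10 on both axes are the members low in WT b and KO b.

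A second pattern joined 1 WT and 1 KO library. Rps2, at the channel where messenger RNA enters (chromosome 17, 24855061 to 24858874 on mm9), was at 235.4, 14.5 and 236.2 CPM in WT and at 359 (KO a), 11.6 (KO b) and 243.3 (KO c) CPM. Rps18, a protein of the small-subunit head (chromosome 17, 34088944 to 34092946), was at 31.7, 1.30 and 35.8 CPM in WT and at 50.2, 0.42 and 32.0 CPM in KO. Rpl29 was at 59.9, 4.98 and 70.6 CPM in WT and at 103.1, 3.80 and 73.3 CPM in KO. Rpl34 was at 98.3, 21.4 and 128.5 CPM in WT and at 163.1, 12.0 and 126.7 CPM in KO. In all 4 genes WT b and KO b lie together, far under the other 4 libraries. Of 67 members at 10 CPM or more in those other 4 libraries, these 4 had both b libraries under 0.25 of the lowest of the 4, where 0.0979% of all genes did (10 of 10215). Under the lowest of those 4 libraries by any margin in both b libraries were 16 of the 67 members, against 15% of all genes. Among these were Rpl30, at 53.4 CPM in WT b and 146.6 in KO b against 233 to 352.4 CPM elsewhere, and Rpl3, at 55.4 and 54.4 CPM against 103.7 to 155.7. A processed pseudogene of Rps7 listed as Gm9493 had 109 and 65 counts in WT b and KO b and 423 to 955 elsewhere. Rpl3 and Gm9493 were chosen after their values were seen. In the Prep1 libraries Rps2 was at 236.8 and 162.3 CPM and Rps18 at 20.9 and 21.7 CPM.

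**Figure D4:**
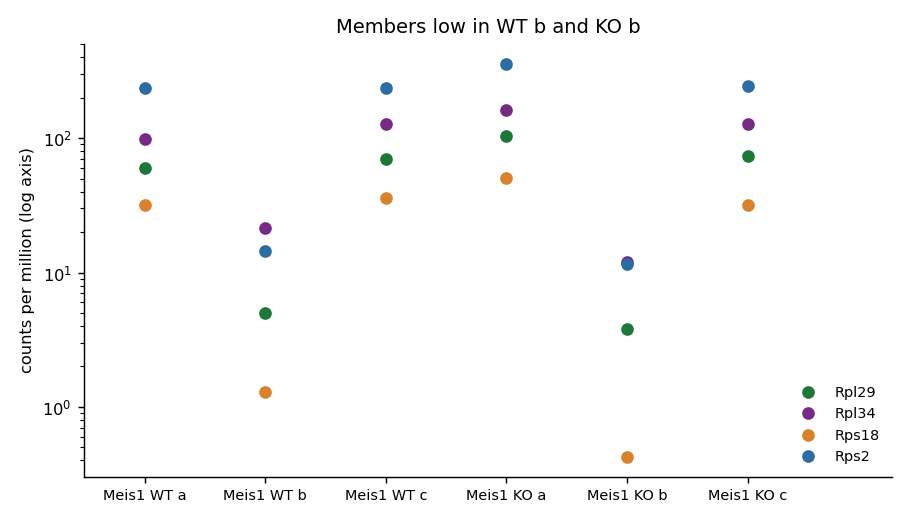
Points are the CPM (log axis) of Rps2, Rps18, Rpl29 and Rpl34 in the 6 Meis1 libraries. In WT b and KO b all 4 genes are between 0.42 and 21.4 CPM, and in the other libraries between 31.7 and 359 CPM.

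Other entries set WT b and KO b apart too. An entry listed as Gm10260 had 1217 counts in WT b and 886 in KO b and 0 or 1 in the other 4 libraries. Its Ensembl identifier is that of a processed pseudogene of Rps18 in GENCODE M21, there named Rps18-ps3. The 456 coding bases compared differed between Rps18-ps3 and Rps18 at 3 positions, an identity of 99.3%. The authors place the entry on chromosome 13, and GENCODE M21 places Rps18-ps3 on chromosome 8. In GENCODE M21 the name Gm10260 belongs to a different, protein-coding gene that also shares sequence with Rps18. Whether the counted entry has the sequence of Rps18-ps3 was not settled. Another entry, Gm17290, has the same 6 counts. A stretch as long as 1 read, from base 147 to 214 of the Rps18 coding sequence, shows how little separates Rps18 from Rps18-ps3. The line headed Gm10260 entry gives the Rps18-ps3 sequence. The only differing base is in capitals (G35C, counted from 1 at the first base shown).
Rps18 transcript: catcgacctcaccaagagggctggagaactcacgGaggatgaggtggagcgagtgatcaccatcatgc
Gm10260 entry: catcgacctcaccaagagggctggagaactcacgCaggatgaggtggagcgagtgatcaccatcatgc

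The adult globin gene Hbb-b1 had 1850 and 1020 counts in WT b and KO b and 59 to 165 elsewhere. In the Prep1 libraries Rps2 was at 162.3 CPM or more. The cause of the low Rps2, Rps18, Rpl29 and Rpl34 was not tested. Without WT b and KO b, 0 members passed, 6 were at an unadjusted p under 0.05 by edgeR, where 2.32% of all genes were, and the medians of the subunits were 0.26 (large) and 0.27 (small). With a term for the b libraries in the edgeR fit, also chosen after seeing the data, 0 members passed, 3 were at an unadjusted p under 0.05, where 2.49% of all genes were, and the medians were 0.09 and 0.10.

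Near-identical copies limit what a member's level means. Ribosomal protein genes have many processed pseudogenes, and the tool the authors named, RSEM, divides a read among the transcripts it could come from. Of 80 members with a coding transcript in GENCODE M21, 7 shared no stretch of 68 bases at 97% identity with another gene, among them Rpl4, Rpl22 and Rps14, and 50 shared 50% or more of their length. The median level was 411 CPM per kilobase in the first 7 and 72.4 in the 50, though the 50 ranged widely, from 1.70 to 1201, and the 7 included Rpl39l at 0.55. Across the 80 genes, which share libraries and are not replicates, Spearman's rho of level with the percent of length shared was -0.18. Level and percent shared both divide by the length of the 1 transcript taken per gene, 5179 bases for Rps15a, so they compare genes only roughly. Rps6, the target of S6 kinases, had a mean of 24.0 counts, and its pseudogene listed as Gm13654 had 344 to 581. Rpl12 had a mean of 281 counts, and Gm10275, a copy on chromosome 10, had 655 to 1180. Gm10275 was at 155.7, 180.7 and 188.3 CPM in WT and 263.6, 149.1 and 168.9 CPM in KO, high in KO a like Rpl12 itself. With 55 members summed with their 96 pseudogene copies in the table, a step chosen after seeing the data, 0 members passed and the medians were 0.12 (large) and 0.11 (small). The mean level of Rps6 was then 93.9 CPM in place of 4.84, and the log2 difference of Rps18 was -0.29 in place of 0.24.

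Paralogues are given beside their partners, as CPM that are not corrected for length. Rpl22, a large-subunit protein with roles in lymphocytes, was at 480.5, 763 and 682.6 CPM in WT and at 951.3, 538.2 and 581.8 CPM in KO. Its paralogue Rpl22l1 was at 11.1, 20.6 and 22.2 CPM in WT and at 21.4, 10.5 and 20.2 CPM in KO, and the groups overlap. Rps27l, a p53-inducible paralogue, was at 66.5, 77.2 and 81.3 CPM in WT and at 90.7, 56.1 and 81.9 CPM in KO. Rps27 itself was between 0.00 and 1.45 CPM in all 6 libraries, while 98.8% of its length is shared with other genes. Rps4x was at 264.7, 333.4 and 367.9 CPM in WT and at 460.7, 277.4 and 324 CPM in KO, where Rps4y2 went the other way in KO a. Rpl7l1, a nucleolar relative of Rpl7, stayed between 115.4 and 133.3 CPM in all 6 libraries. Rpl39l, a testis-enriched copy of Rpl39, was at 0.95, 1.29 and 0.00 CPM in WT and at 0.00, 0.21 and 0.20 CPM in KO, under the filter for testing. Rpl17 was the lowest other large-subunit member, between 0.42 and 4.14 CPM.

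Most ribosomal protein transcripts were slightly lower in the Prep1 hypomorph library than in its WT. With 1 library a group there is no replicate check and no test, and intervals cover counting error only. Members held 45261 of 4000984 counts in WT (1.13%, exact 95% interval 1.12% to 1.14%) and 61943 of 5893401 in the hypomorph (1.05%, 1.04% to 1.06%). The Meis1 table, a separate one, gave 1.69% in WT and 1.82% in KO from the deposited means. Those means include the 10 very abundant genes left out of the per-library counts, where the mean shares were 1.82% in WT and 1.95% in KO. Of 73 members that reached 20 counts in 1 of the libraries, 53 were lower and 20 higher in the hypomorph, 72.6% lower where 49.6% of all genes were. The median log2 ratio was -0.16 over 45 large-subunit members and -0.12 over 28 small-subunit members, and 0.00 over all genes. Summed over the subunit, the log2 ratio was -0.13 for both, with counting intervals of -0.15 to -0.10 (large) and -0.16 to -0.11 (small), so no difference between subunits was detectable. The intervals of 25 members (34.2%) lay wholly under 0, against 13.1% of all genes, and 0 lay wholly above, against 11.9%. Intervals narrow with depth, and the median member had 564 counts over both libraries where the median gene had 322.

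**Figure D5:**
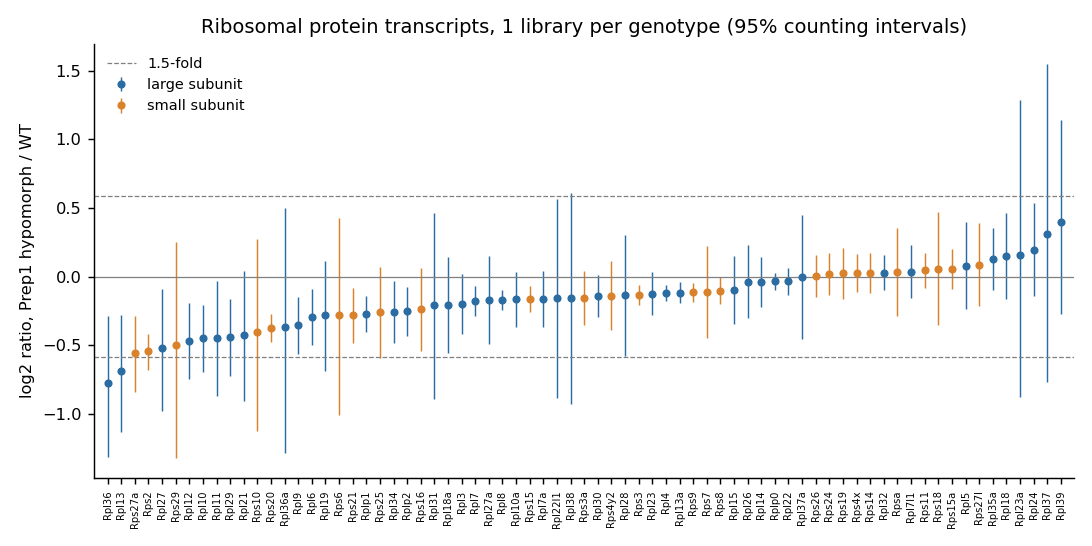
Points are the log2 ratio of CPM, Prep1 hypomorph over WT, of 71 of the 73 ribosomal protein genes with at least 20 counts, sorted, with 95% counting intervals and dashed lines at 1.5-fold. The ratios run from -0.77 for Rpl36 to 0.40 for Rpl39, and both subunits are spread along the order.

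Few single members differed by much between the Prep1 libraries. Past 1.5-fold lower were 2 members (2.74%), near the background of 2.76%, and 0 were past 1.5-fold higher (background 6.51%). With a minimum of 200 counts in place of 20 the members past 1.5-fold were 0 in either direction, where 0.473% of all genes were lower and 1.57% higher. With a minimum of 5 counts 5 of 79 members were lower (6.33%), against 5.41% of all genes, and 1 was higher, against 10.5%. The 2 at 20 counts were Rpl36, at 18.1 CPM in WT and 10.4 in the hypomorph (log2 ratio -0.77, interval -1.31 to -0.29), and Rpl13, at 24.9 and 15.3 CPM (-0.69, interval -1.13 to -0.28). No member was past 2-fold in either direction, where 0.464% of genes were lower and 2.01% higher. The lowest members of the small subunit with at least 50 counts were Rps27a, at 54.9 and 37.2 CPM (-0.56), Rps2, at 236.8 and 162.3 CPM (-0.54), Rps20, at 368.1 and 284.3 CPM (-0.37), and Rps21, at 92.5 and 76.1 CPM (-0.28). Under the same minimum the other lowest members of the large subunit were Rpl27, at 21.9 and 15.2 CPM (-0.52), and Rpl12, at 53.4 and 38.6 CPM (-0.47).

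The highest ratios among members with at least 50 counts had intervals that include 0. Rpl39 had 27 and 54 counts (0.40), Rpl24 at 29.7 and 34 CPM (0.19), Rpl18 at 34.8 and 38.6 CPM (0.15) and Rpl35a at 66.0 and 72.1 CPM (0.13). In the small subunit Rps27l was at 0.09, and Rps15a and Rps18 at 0.05. Members with the most counts had the narrowest intervals, which cover counting error in these libraries and not the spread between libraries of a genotype. Rpl4 was at 999.4 and 919.7 CPM, a log2 ratio of -0.12, interval -0.18 to -0.06. Rplp0 was at 845 and 825.9 CPM, -0.03, interval -0.10 to 0.03. The developmental members Rps19, Rps14, Rpl5 and Rpsa lay at 0.03, 0.03, 0.08 and 0.03, Rps7 at -0.11, Rpl38 at -0.16, Rpl13a at -0.12, Rps6 at -0.28 and Rpl11 at -0.44. Rpl35, Rps28, Rps23, Rps13, Rps12, Rpl17 and Rps27 had fewer than 20 counts in each library and were given no ratio.

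In the Prep1 libraries the other lists of the pathway leaned the same way as the members. The median log2 ratio was -0.12 for 22 translation factors and other TOP genes, -0.19 for 50 ribosome assembly factors, with 42 of them lower, -0.10 for 76 mitochondrial ribosomal protein genes and -0.05 for 13 genes of the RNA polymerase I machinery. Fbl, the methyltransferase of ribosomal RNA, had 47 and 37 counts and a log2 ratio of -0.88. The 17 genes of Myc and mTOR control had a median of -0.05, with Myc at 52.7 and 68.7 CPM (0.38), and the 11 p53 targets -0.01. Most lists of other cell types leaned the other way, with medians of 0.52 for 26 erythroid genes, 1.28 for 12 hepatoblast and yolk sac endoderm genes and 0.13 for 19 neuron genes. Among the lists of 3 marker genes, heart muscle was at -0.37 and the medians of the others were above 0. The 29 hypoxia-induced and glycolytic genes were at 0.15. Their part in the lower share of ribosomal protein counts was not tested.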

How the data were processed

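Expression was estimated with RSEM on build mm9, per the submitters' processing notes, and no source used here names a later tool. For Meis1 the authors deposited a signal, the mean over a group's libraries of counts scaled by a size factor. The authors also deposited a fold ratio, a log2 ratio, a p-value with its adjusted p-value, and a variance ratio per group. For Prep1 the authors deposited expected counts, in whole numbers with 0 written as 0.1, with an unscaled log2 ratio. The tests had been planned for counts, so whole counts per library were worked back from the group means. All 81 members had 1 possible answer in both groups, and 10 very abundant genes that were not settled were left out. The method was tested on simulated data. Repeated entries (37 and 34) were dropped.

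EdgeR 4.0.16 (R 4.3.3) tested the counts with the quasi-likelihood test, TMM scaling, filterByExpr and Benjamini-Hochberg adjustment at 0.05, beside DESeq2 1.42.0 and limma 3.58.1. The Rps27, Rps28 and Rpl39l counts were too low to test. Prep1 log2 ratios used CPM after TMM scaling, with 2 added as prior count, with exact binomial (Clopper-Pearson) 95% intervals of the 2 counts. Reads carry no molecular identifiers, so intervals cover counting error only. Copies were sought with blastn 2.17.0 in GENCODE M21 transcripts, at 68 bases and 97% identity or more. Members were named by fixed rules: paralogue names, the 4 smallest p per direction and subunit, the 4 highest and lowest Prep1 ratios per subunit with at least 50 counts, the extremes of level, and a list of members with textbook roles. A few of the genes these rules name are not reported here. Members low in WT b and KO b, and Rpl30, were chosen after their values were seen. The members and lists were chosen with earlier results of these data known. Alternatives covered scaling, filters, tools, each library left out, a term for the b libraries, and copies. Library sizes exclude the 10 unsettled genes.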

Additional observations from a re-analysis of the deposited data

How the results depend on the processing

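The count of 0 members called by edgeR in Meis1 KO against WT was 0 under every planned and added alternative. Leaving out 1 library at a time gave subunit medians (log2) of -0.10 to 0.25 (large) and -0.17 to 0.28 (small), large-minus-small differences of -0.053 to 0.072, and a difference in the share of counts of -0.19 to 0.33 percentage points. The medians and the share fell below 0 only without KO library a. The large-minus-small difference was 0.013 with limma-voom and 0.012 with pseudogene copies summed, and its sign is not settled. At least 200 counts moved the large-subunit Prep1 median to -0.13 and the members past 1.5-fold to 0, and at least 5 counts gave 6. The shares of variance ratios above 2 were 13.6% in WT and 38.3% in KO. Of 41 single members, 29 changed sign in some of 16 settings, with 0 called in any. With limma-voom Rpl36 was at -0.026, Rps18 at -0.46, Rps21 at -0.0049, Rps27l at -0.0083 and Rps7 at -0.087. Without WT b and KO b, a choice made after seeing the data, Rpl17 was at 0.26, Rpl22l1 at 0.30, Rpl38 at 0.066, Rps27a at 0.055 and Rpsa at 0.052. With a term for the b libraries Rps27l was at -0.0024 and Rps7 at -0.020. With copies summed Rps18 was at -0.29, Rps29 at 0.13 and Rpsa at 0.014. Over the libraries left out the log2 difference ran from -0.10 to 0.34 for Rpl13, -0.30 to 0.31 for Rpl13a, -1.12 to 0.30 for Rpl17, -0.10 to 0.26 for Rpl18, -0.30 to 0.20 for Rpl22l1, -0.0071 to 0.14 for Rpl24, -0.10 to 0.61 for Rpl35a, -0.33 to 0.27 for Rpl36, -0.62 to 0.035 for Rpl38, -0.15 to 0.50 for Rpl39, -0.089 to 0.27 for Rpl4, -0.10 to 0.23 for Rpl5, -0.13 to 0.23 for Rplp0 and -0.30 to 0.27 for Rps14. It ran from -0.17 to 0.33 for Rps15a, -0.086 to 0.54 for Rps16, -0.51 to 0.82 for Rps18, -0.026 to 0.31 for Rps19, -0.34 to 0.89 for Rps2, -0.18 to 0.32 for Rps20, -0.26 to 0.18 for Rps21, -0.59 to 0.074 for Rps23, -0.12 to 0.20 for Rps27l, -0.23 to 0.24 for Rps3, -0.10 to 0.28 for Rps4x, -0.43 to 0.31 for Rps7 and -0.23 to 0.11 for Rpsa. The causes were not tested. No paired analysis was possible because the labels give no shared replicate numbers and the libraries cannot be tied to the submitters' sample codes. Depth limits members under about 20 counts, and read sharing with copies may limit others.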
